A study of Rattus norvegicus with 6 samples.

Results

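The mitochondrial carriers are the SLC25 family, the transport proteins that move nucleotides, phosphate, metabolites, cofactors and iron across the inner membrane of mitochondria. The 47 genes described here are the rows of the count table whose symbol is Slc25a followed by a number, together with the rows found for the uncoupling proteins Ucp2 and Ucp3, out of 20653 genes in all. Their transcripts were counted by RNA sequencing in primary mesenchymal stem cells of SD rats, taken from nasal mucosa. Of the 6 libraries, 3 came from cells labelled EMSC and 3 from cells labelled NPS-EMSC, which the series title describes as overexpressing neuropeptide S. The labels give no age or passage, and name no vector in either group. They do not say whether the 3 libraries of a group came from separate animals or cultures, so p-values measure the spread between these libraries, which may be technical.

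Mitochondrial carriers are small proteins made of repeated units of paired membrane helices, and most exchange a solute of the matrix for a solute of the cytosol. The ADP/ATP carriers and the phosphate carrier supply ATP synthase, the aspartate-glutamate and oxoglutarate carriers form part of the malate-aspartate shuttle, and the mitoferrins bring in iron for heme and iron-sulfur clusters. Uncoupling proteins belong to the same family, and Ucp1 among them makes heat in brown fat by letting protons back into the matrix.

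Libraries held 39082245 to 40261205 counted reads, of which the family took 0.169% to 0.177%. Pairs of libraries of the same group had correlations of log2 CPM between 0.996 and 0.997 over the tested genes, and no library stood apart. Nps, which encodes the neuropeptide S precursor, had 77014 to 93566 reads per NPS-EMSC library and 0, 0 and 10 in the EMSC libraries. The mesenchymal and neural crest markers Vim, Thy1, Cd44, Eng, Nt5e, Nes, S100b and Ncam1 were all detected, and Vim stood at 4555 CPM in EMSC against 5672 CPM in NPS-EMSC. In NPS-EMSC 5 of these 8 markers were higher, with log2 fold changes of 2.16 for Nt5e, 1.55 for Thy1, 0.86 for Eng, 0.37 for Cd44 and 0.32 for Vim. The other 3 were lower, at -1.98 for S100b, -0.997 for Nes and -0.70 for Ncam1. Markers of other cell types were low, with 1 exception. The sum of 3 leukocyte markers was 6.96 to 9.33 CPM in EMSC and 3.87 to 4.52 CPM in NPS-EMSC, with Ptprc close to 0 in NPS-EMSC (0.00862 CPM). The sums of 3 epithelial and 2 endothelial markers stayed under 2 CPM in every library. The sum of 4 striated muscle markers was 35.0 to 46.1 CPM in EMSC and 349.2 to 428.5 CPM in NPS-EMSC. The myosin gene Myh2 stood at 27.0 ± 5.94 CPM in EMSC against 368 ± 45.3 CPM in NPS-EMSC (SD, n = 3), the troponin gene Tnnt3 at 13.5 and 8.47 CPM, and the muscle creatine kinase gene Ckm near 0, at 0.0163 and 0.0861 CPM. The part of these markers in the results on carriers was not tested, and in bulk libraries fewer cells of a type and less RNA per cell cannot be told apart.

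Of the 47 members, 41 had enough reads to be tested. The test was edgeR's quasi-likelihood F test on counts. Called means a p below 0.05 after Benjamini-Hochberg correction across the 14505 genes that had enough reads. The log2 ratio is the fitted log2 fold change, positive where NPS-EMSC was higher, with its standard error (SE), and CPM are reads scaled to the normalised library size. In NPS-EMSC 13 members were higher and 7 were lower, and 21 were not called. The called members are 48.8% of those tested, where 59.3% of all tested genes were called, 29.7% higher and 29.5% lower. The 3 libraries of each group did not overlap in 13 members that stood above and 7 that stood below in NPS-EMSC, or 48.8% of the members, against 64.7% of all tested genes. The median log2 ratio was 0.06 for the members and -0.00 for all tested genes, and the median size of the change was 0.22 against 0.34. Changes of at least 1.5-fold were called in 6 members that rose and 4 that fell, 24.4% of those tested against 26.5% of all tested genes. Changes of at least 2-fold were called in 7 members, 17.1% against 14.8%. Larger changes were thus about as frequent among the carriers as among all tested genes.

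**Figure D1:**
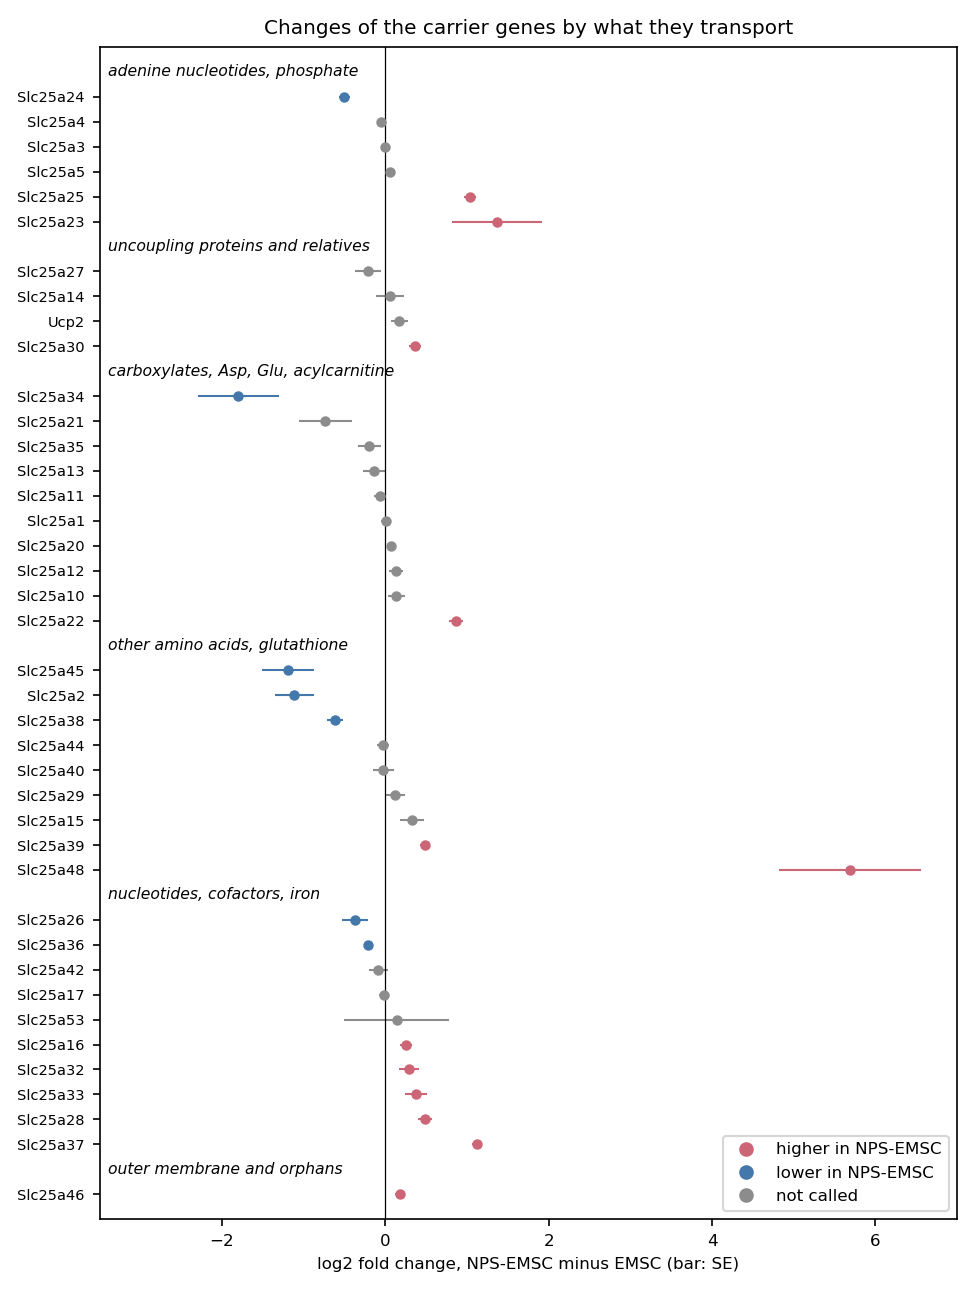
Log2 fold change (x axis, NPS-EMSC minus EMSC) of 40 of the 41 tested carrier genes (y axis), grouped by what they transport. Points are fitted values and bars their SE, red for higher, blue for lower and grey for not called. Most carboxylate carriers lie near 0, Slc25a48 lies far to the right at 5.69, and the lowest point is Slc25a34 at -1.80.

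The most abundant carriers did not pass the test. Levels between genes are compared as FPKM, reads per kilobase of gene model and library size, since counts grow with gene length. Slc25a3, the phosphate carrier gene, had 246, 239 and 240 FPKM in the EMSC libraries and 229, 237 and 234 FPKM in the NPS-EMSC libraries. Slc25a4, the gene of the ADP/ATP carrier that prevails in heart and muscle, had 252, 246 and 228 FPKM in EMSC and 224, 229 and 227 FPKM in NPS-EMSC. These genes were thus near equal in level, and no other member came close to them. Slc25a5, the gene of the more widely expressed ADP/ATP carrier, followed with 87.4, 80.7 and 78.6 FPKM in EMSC and 80.5, 86.4 and 82.8 FPKM in NPS-EMSC. Slc25a11, the oxoglutarate-malate carrier gene, came next with 47.7, 44.8 and 45.9 FPKM in EMSC and 40.1, 44.7 and 43.0 FPKM in NPS-EMSC. On the CPM scale, which adjusts for library composition, the groups overlapped in all 4 of these genes. Their log2 ratios were -0.01 (SE 0.04, adjusted p = 0.921) for Slc25a3, -0.05 (SE 0.05, adjusted p = 0.328) for Slc25a4, 0.06 (SE 0.05, adjusted p = 0.305) for Slc25a5 and -0.07 (SE 0.06, adjusted p = 0.357) for Slc25a11. Slc25a3, Slc25a4 and Slc25a5 together made up 62.4% ± 0.966 of the summed FPKM of the family in EMSC and 59.9% ± 0.392 in NPS-EMSC (SD, n = 3). The ratio of Slc25a4 to Slc25a5 was 2.89, 3.04 and 2.90 in the EMSC libraries and 2.78, 2.65 and 2.74 in the NPS-EMSC libraries. The groups did not overlap in this ratio although neither gene was called, and the ratio itself was not tested. ADP/ATP carrier genes are close in sequence and have processed pseudogenes, so some reads may have been assigned to the wrong copy.

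**Figure D2:**
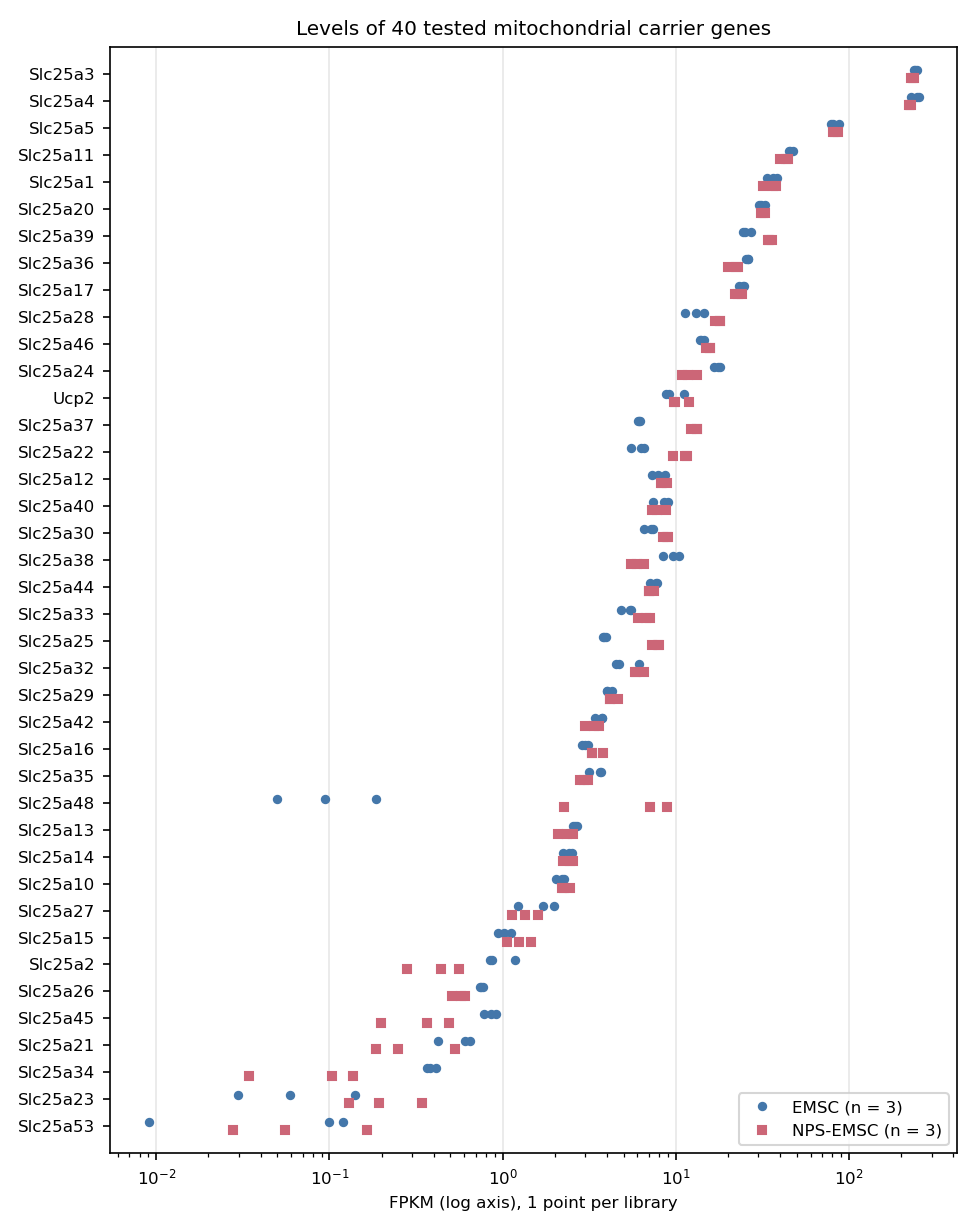
FPKM (x axis, log scale) of 40 of the 41 tested members in each library, ordered by their mean, with EMSC as circles and NPS-EMSC as squares. Slc25a3 and Slc25a4 lie above 220 FPKM in every library, and Slc25a48 is the member whose groups lie farthest apart.

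Within the carriers that exchange ATP-Mg for phosphate, which calcium regulates through EF-hand domains, 1 gene rose as its close relative fell. Slc25a25 stood at 18.5, 19.6 and 18.9 CPM in EMSC against 40.1, 36.6 and 40.3 CPM in NPS-EMSC. Every NPS-EMSC library was thus well above every EMSC library, with a log2 ratio of 1.04 (SE 0.08, adjusted p = 1.02e-11). Slc25a24 had 60.8, 67.1 and 64.1 CPM in EMSC against 44.5, 50.0 and 40.9 CPM in NPS-EMSC, again without overlap, and fell by 0.50 on the log2 scale (SE 0.07, adjusted p = 5.93e-07). The ratio of Slc25a25 to Slc25a24, in FPKM, was 0.227, 0.218 and 0.220 in the EMSC libraries and 0.674, 0.547 and 0.738 in the NPS-EMSC libraries. Slc25a24 therefore remained the more abundant of this pair in all 6 libraries. Slc25a23, the third such carrier gene, had only 6, 3 and 14 reads in EMSC and 34, 19 and 13 in NPS-EMSC, and the groups overlapped. Its log2 ratio was 1.37 (SE 0.55, adjusted p = 0.0361). This call was lost without EMSC replicate 1 (adjusted p = 0.110), EMSC replicate 2 (adjusted p = 0.161), NPS-EMSC replicate 1 (adjusted p = 0.238) or NPS-EMSC replicate 2 (adjusted p = 0.0530), and with DESeq2 (adjusted p = 0.0668). Over all alternatives the adjusted p of Slc25a23 was 0.0174 to 0.238. In RefSeq's gene table (assembly GRCr8), Slc25a25 overlaps Naif1, which had a log2 ratio of -0.26 (adjusted p = 0.152). Slc25a24 overlaps Slc25a54, which is not analysed here. No source used here says whether counting used strand, and reads of overlapping genes may be shared.

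The 250 bases before the annotated start of this pair are shown because the genes moved in opposite directions, and those of Slc25a33 because it holds the same motif as Slc25a25. The sequences are from RefSeq, assembly GRCr8, and are written 5′ to 3′ along the gene's strand. The window of Slc25a25 lies at chr3:36116582-36116831 (minus strand), that of Slc25a24 at chr2:199449175-199449424 (plus strand) and that of Slc25a33 at chr5:165502974-165503223 (minus strand). Capitals mark the cyclic AMP response element TGACGTCA, the palindrome bound by CREB and ATF factors.
Slc25a25: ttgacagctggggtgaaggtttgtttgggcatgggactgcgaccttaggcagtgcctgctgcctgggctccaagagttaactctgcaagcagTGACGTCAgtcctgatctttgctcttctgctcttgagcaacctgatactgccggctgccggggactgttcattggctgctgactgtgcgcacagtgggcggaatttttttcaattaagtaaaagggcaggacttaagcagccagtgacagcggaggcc
Slc25a24: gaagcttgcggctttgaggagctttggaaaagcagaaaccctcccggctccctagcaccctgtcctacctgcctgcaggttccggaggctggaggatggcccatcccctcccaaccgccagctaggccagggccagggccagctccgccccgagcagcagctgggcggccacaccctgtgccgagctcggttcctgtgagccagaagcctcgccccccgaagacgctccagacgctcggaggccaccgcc
Slc25a33: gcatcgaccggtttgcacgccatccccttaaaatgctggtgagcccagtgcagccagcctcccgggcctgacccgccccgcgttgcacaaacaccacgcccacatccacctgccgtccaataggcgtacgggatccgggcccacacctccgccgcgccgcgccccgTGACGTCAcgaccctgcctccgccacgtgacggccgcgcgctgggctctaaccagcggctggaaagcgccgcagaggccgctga

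The element lay 158 to 151 bases before the start of Slc25a25 and 84 to 77 bases before that of Slc25a33, and the window of Slc25a24 held no copy. Promoter windows, here with 50 further bases after the start, were found for 39 of the 47 members, and these 2 were the members with the element (5.13%), against 2.0% of all 27457 genes with a window. Both genes were called higher. A window was found for 8 of the 13 members called higher, 5 of the 7 called lower and all 21 not called. A link between the element and the change was not tested. The search took both strands and also covered AP-1 (TGANTCA), ETS (CCGGAAG), a composite of ATF4 and C/EBP (TGATGNAAT), ERR (TCAAGGTCA), the E-box (CACGTG) and the GC box (GGGCGG). GC boxes were in 26 members (66.7%) against 36.0% of all genes, and ETS sites were in 6 (15.4%) against 9.63%. The 6 with an ETS site were Slc25a3, Slc25a4, Slc25a14, Slc25a17, Slc25a20 and Slc25a38, and of these Slc25a38 was called. The E-box was in 3 members (7.69% against 7.08%), Slc25a2, Slc25a33 and Slc25a48, and AP-1 in 1 (2.56% against 8.04%), Slc25a11. No member's window held the ATF4 or ERR letters, which were in 1.14% and 0.441% of all genes. The 27457 genes include genes that were not tested here, and shares among the tested genes alone were not taken. A gene with more than 1 window counted if any of its windows matched. A match describes letters in a window and does not show binding.

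The largest change in the family was that of Slc25a48, whose product carries choline into mitochondria. It had 15, 8 and 29 reads in the EMSC libraries and 1388, 353 and 1119 in the NPS-EMSC libraries, or 0.364, 0.198 and 0.726 CPM against 36.3, 9.13 and 28.7 CPM. The groups lay far apart, and within NPS-EMSC replicate 2 was several times lower than the others. The means were 0.430 ± 0.270 CPM and 24.7 ± 14.0 CPM (SD, n = 3), and the log2 ratio was 5.69 (SE 0.87, adjusted p = 0.00498), a fitted 51.7-fold. The adjusted p reached 0.141 with limma-voom, where the call was lost, and was 0.0287 or lower when any library was left out. Over those, the log2 ratio was 5.31 to 6.22. In level Slc25a48 went from 0.110 FPKM, among the lowest of the family, to 6.09 FPKM, close to Slc25a38 (6.02 FPKM) and Slc25a32 (6.07 FPKM). In the RefSeq gene table its span overlaps those of Il9 and Gm3045l, for which no values are given here.

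Other carriers of amino acids and glutathione changed in both directions, with 2 of 9 tested members higher, Slc25a48 included, 3 lower and 4 not called. The called share was 55.6%, against 59.3% of all tested genes. Slc25a38, whose product imports glycine for the first step of heme synthesis, had 22.7, 18.7 and 21.1 CPM in EMSC against 13.6, 12.3 and 14.8 CPM in NPS-EMSC. The groups did not overlap, and it fell by 0.62 on the log2 scale (SE 0.10, adjusted p = 1.08e-05). Slc25a39, a glutathione importer gene, rose from 58.2, 54.7 and 52.6 CPM to 77.4, 79.1 and 75.0 CPM, with a log2 ratio of 0.48 (SE 0.06, adjusted p = 3.45e-08). Its relative Slc25a40 was not called, at 9.44 ± 0.851 CPM in EMSC against 9.29 ± 1.01 CPM in NPS-EMSC (SD, n = 3; adjusted p = 0.887). The FPKM ratio of Slc25a39 to Slc25a40 was 2.88 to 3.39 in the EMSC libraries and 3.93 to 4.95 in the NPS-EMSC libraries.

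Of the ornithine carrier genes 1 was called. Slc25a2 had 167, 163 and 220 reads in EMSC and 52, 82 and 106 in NPS-EMSC, or 4.06, 4.03 and 5.51 CPM against 1.36, 2.12 and 2.72 CPM. Its groups did not overlap, and it fell with a log2 ratio of -1.11 (SE 0.24, adjusted p = 0.000264). Slc25a2 overlaps Taf7 in the RefSeq gene table, and Taf7 had a log2 ratio of -0.02 (adjusted p = 0.925). Slc25a15, the main ornithine carrier gene of the urea cycle, was not called, at 6.45 ± 0.494 CPM in EMSC against 8.12 ± 1.26 CPM in NPS-EMSC (SD, n = 3; log2 ratio 0.33, adjusted p = 0.0571). Without NPS-EMSC replicate 1 it was called (log2 ratio 0.43, adjusted p = 0.0236). Slc25a45, a low member, had 2.43, 2.67 and 2.25 CPM in EMSC against 1.10, 1.45 and 0.591 CPM in NPS-EMSC, and fell with a log2 ratio of -1.19 (SE 0.32, adjusted p = 0.00219). The branched-chain amino acid carrier gene Slc25a44 and the basic amino acid carrier gene Slc25a29 were not called, with log2 ratios of -0.03 (adjusted p = 0.731) and 0.12 (adjusted p = 0.434).

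**Figure D3:**
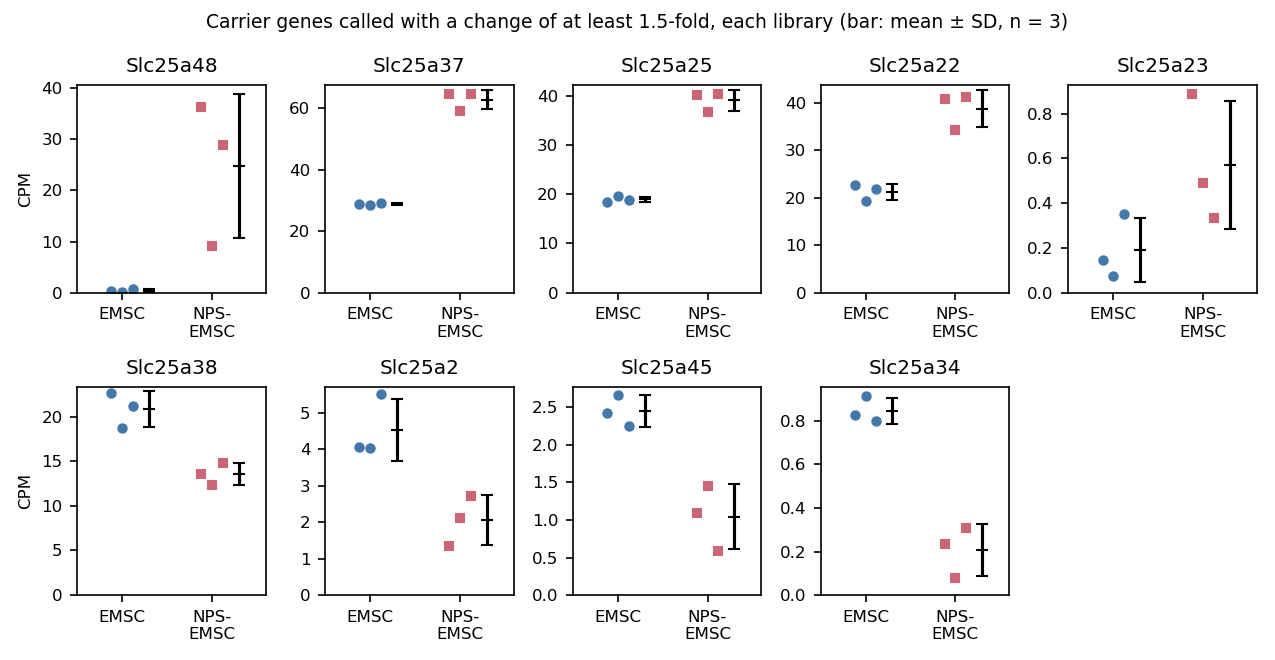
CPM (y axis, linear from 0, a separate scale in each panel) in each library for 9 of the 10 members called with a change of at least 1.5-fold. Circles are EMSC, squares NPS-EMSC, and the bar gives the mean ± SD (n = 3). The NPS-EMSC points of Slc25a37 lie between 59.1 and 64.5 CPM against 28.6 to 29.1 CPM in EMSC, while those of Slc25a48 spread from 9.13 to 36.3 CPM and those of Slc25a23 overlap the EMSC points.

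Both mitoferrin genes rose. Slc25a37, mitoferrin 1, the iron importer best known from red cell precursors, stood at 28.7, 28.6 and 29.1 CPM in EMSC against 64.5, 59.1 and 64.4 CPM in NPS-EMSC. The groups did not overlap, and its log2 ratio of 1.12 (SE 0.06) had the smallest adjusted p in the family (5.05e-14). Slc25a28, the widely expressed mitoferrin 2, rose from 24.7, 19.7 and 22.4 CPM to 32.2, 29.8 and 31.9 CPM (log2 ratio 0.49, SE 0.08, adjusted p = 2.09e-05). The FPKM ratio of Slc25a37 to Slc25a28 was 0.424, 0.530 and 0.476 in the EMSC libraries and 0.732, 0.725 and 0.737 in the NPS-EMSC libraries. Per length, mitoferrin 1 transcripts therefore stayed below those of mitoferrin 2 in every library, although mitoferrin 1 had the higher CPM in each. This order rests on the gene lengths behind the FPKM values, and their annotation is not given. Alas1, which encodes the enzyme that joins glycine and succinyl-CoA at the start of heme synthesis, rose from 27.4 ± 0.682 to 45.5 ± 2.62 CPM (SD, n = 3; log2 ratio 0.73, SE 0.07, adjusted p = 1.30e-09). Alas1 lies outside the naming rule and was chosen after its values were seen.

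**Figure D4:**
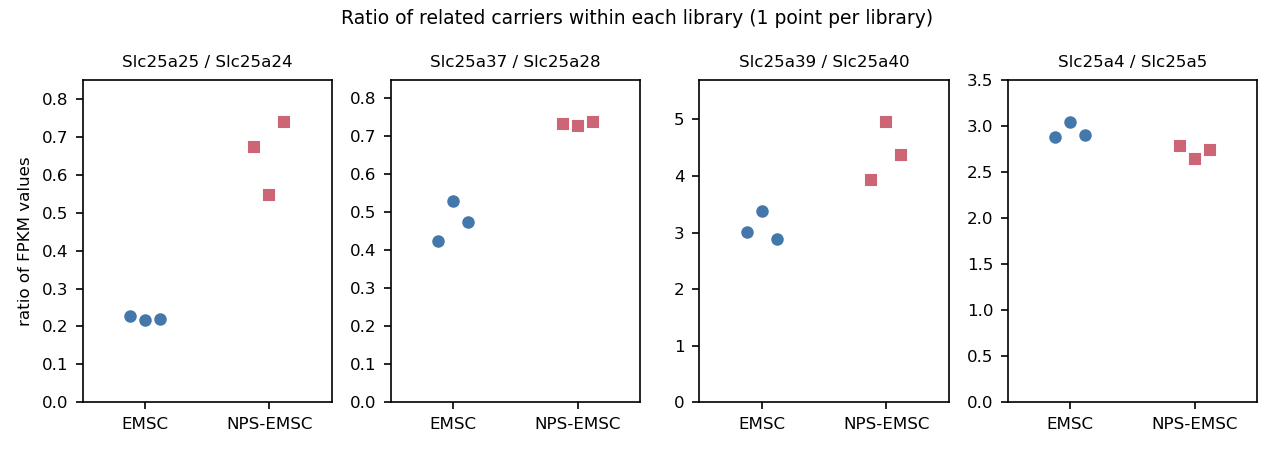
Ratio of the FPKM values of related carriers (y axis, linear from 0) in each library, with EMSC as circles and NPS-EMSC as squares. In all 4 pairs the groups do not overlap, and the ratio of Slc25a25 to Slc25a24 goes from at most 0.227 to at least 0.547. The pairs were chosen after their values were seen, and the ratios were not tested. As single genes, 64.7% of all tested genes did not overlap between the groups.

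Among the carriers of nucleotides, cofactors and iron, 6 of 11 tested members rose, the mitoferrins included, and 2 fell. That is 72.7% called, against 59.3% of all tested genes. The pyrimidine nucleotide carrier genes moved apart. Slc25a33 rose from 7.13 ± 0.437 to 9.26 ± 0.730 CPM (SD, n = 3; log2 ratio 0.37, SE 0.13, adjusted p = 0.0183), while the more abundant Slc25a36 fell from 218 ± 4.45 to 188 ± 11.5 CPM (log2 ratio -0.21, SE 0.05, adjusted p = 0.000512). The call of Slc25a33 was lost without EMSC replicate 2 (adjusted p = 0.0707) or NPS-EMSC replicate 3 (adjusted p = 0.0856).

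The other called genes of this role moved little. Slc25a16 rose with a log2 ratio of 0.25 (adjusted p = 0.00641), lost without NPS-EMSC replicate 1 (adjusted p = 0.0739). Slc25a32, the mitochondrial folate carrier gene, rose with a log2 ratio of 0.29 (adjusted p = 0.0392), though its groups overlapped. Its call held without EMSC replicate 1 but was lost when any other library was left out, with adjusted p = 0.133 without EMSC replicate 2, 0.180 without EMSC replicate 3, and 0.0516, 0.130 and 0.0587 without NPS-EMSC replicates 1, 2 and 3. Slc25a26, which brings in the methyl donor S-adenosylmethionine, fell with a log2 ratio of -0.37 (adjusted p = 0.0413). With single libraries left out, that call held without NPS-EMSC replicate 3 and was lost at adjusted p = 0.0652, 0.0736 and 0.0795 without EMSC replicates 1, 2 and 3 and at 0.135 and 0.0670 without NPS-EMSC replicates 1 and 2. It was also lost with DESeq2 (adjusted p = 0.0607) and held with limma-voom (adjusted p = 0.0430). The span of Slc25a26 overlaps that of Lrig1, which had a log2 ratio of -1.07 (adjusted p = 5.95e-11). The peroxisomal cofactor carrier gene Slc25a17 and the coenzyme A carrier gene Slc25a42 were not called, with log2 ratios of -0.01 (adjusted p = 0.863) and -0.09 (adjusted p = 0.533). Slc25a53, with 1 to 18 reads per library, was at 0.14 (SE 0.65, adjusted p = 0.870).

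Carriers of carboxylates, aspartate, glutamate and acylcarnitine were mostly not called, with 1 of 10 tested members higher and 1 lower. Thus 20.0% of them were called, against 59.3% of all tested genes. The member that rose was Slc25a22, the glutamate carrier gene. It had 22.6, 19.2 and 21.8 CPM in EMSC against 40.7, 34.2 and 41.2 CPM in NPS-EMSC, without overlap, and a log2 ratio of 0.87 (SE 0.08, adjusted p = 2.58e-09). Its span overlaps that of Cend1 in the RefSeq gene table, and Cend1, with 240 reads over the EMSC libraries and 73 over the NPS-EMSC libraries, fell with a log2 ratio of -1.57 (adjusted p = 0.000520). The member that fell was Slc25a34, a carrier gene with few reads, at 34, 37 and 32 reads in EMSC and 9, 3 and 12 in NPS-EMSC. These are 0.826, 0.915 and 0.802 CPM against 0.235, 0.0776 and 0.308 CPM, without overlap, and the log2 ratio was -1.80 (SE 0.49, adjusted p = 0.00291).

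The carriers of the malate-aspartate shuttle, of citrate and of acylcarnitine had small fitted changes, and none was called. Slc25a12 and Slc25a13, the aspartate-glutamate carrier genes, had log2 ratios of 0.13 (adjusted p = 0.169) and -0.13 (adjusted p = 0.412). Slc25a1, the citrate carrier gene, stood at 58.5 ± 3.39 CPM in EMSC against 59.0 ± 5.07 CPM in NPS-EMSC (SD, n = 3; log2 ratio 0.01, adjusted p = 0.894). Slc25a20, which exchanges carnitine and acylcarnitine for fatty acid oxidation, was at 0.07 (adjusted p = 0.280), and the dicarboxylate carrier gene Slc25a10 at 0.14 (adjusted p = 0.261). Slc25a35 had a log2 ratio of -0.20 (adjusted p = 0.226). Slc25a21, the oxodicarboxylate carrier gene, had 2.79, 1.98 and 2.98 CPM in EMSC against 1.20, 0.879 and 2.52 CPM in NPS-EMSC, so the groups overlapped (log2 ratio -0.73, adjusted p = 0.0532). It was called without EMSC replicate 2 (adjusted p = 0.0333) or NPS-EMSC replicate 3 (log2 ratio -1.27, adjusted p = 0.00240). The same held with limma-voom (adjusted p = 0.0261), without the low-count filter (adjusted p = 0.0219) and with a replicate block (adjusted p = 0.0182). In 10 of 15 alternatives Slc25a21 stayed not called. Its span overlaps that of Pax9, which fell with a log2 ratio of -0.72 (adjusted p = 2.13e-11).

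Of the genes with a Ucp symbol, Ucp2 was the 1 present at more than a few reads. It stood at 15.2 ± 1.86 CPM in EMSC against 17.2 ± 1.94 CPM in NPS-EMSC (SD, n = 3) and was not called (log2 ratio 0.17, SE 0.11, adjusted p = 0.177). Without EMSC replicate 1 it reached 0.27 (adjusted p = 0.0486). Ucp3, the form of skeletal muscle, had 0 reads in EMSC and 7 in NPS-EMSC, and Ucp1, the form of brown fat, is not analysed here, nor are Slc25a31, Slc25a41 and Slc25a54. The summed level of 4 brown adipocyte markers was 0.947 to 1.16 CPM in EMSC against 0.601 to 1.41 CPM in NPS-EMSC, and Cidea had the most reads of the 4 in every library. Among the relatives of the uncoupling proteins, Slc25a30 rose from 25.6 ± 1.65 to 32.9 ± 1.36 CPM (log2 ratio 0.36, SE 0.08, adjusted p = 0.000238). Slc25a14 and the brain form Slc25a27 were not called, with log2 ratios of 0.06 (adjusted p = 0.789) and -0.22 (adjusted p = 0.248). Without EMSC replicate 2, Slc25a27 was called at -0.38 (adjusted p = 0.0287).

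Slc25a46, an outer membrane member that acts in mitochondrial shape and fusion, rose from 41.8 ± 1.41 to 47.1 ± 1.66 CPM (SD, n = 3; log2 ratio 0.17, SE 0.06, adjusted p = 0.0178). The call was lost without EMSC replicate 1 (adjusted p = 0.0648), NPS-EMSC replicate 1 (adjusted p = 0.0615) or NPS-EMSC replicate 3 (adjusted p = 0.0723). The 6 members below the count filter were near the limit of detection. Slc25a43 had 29 reads in each group and Slc25a52 had 8 in EMSC and 11 in NPS-EMSC. Slc25a47 had 1 read in EMSC and 0 in NPS-EMSC. Slc25a6, Slc25a18 and Ucp3 each had 0 reads in EMSC and 7 in NPS-EMSC. A related row under the older name Mcart1, which RefSeq gives as a synonym of the NAD carrier gene Slc25a51, lies outside the symbol rule and had 3616 to 3707 reads in EMSC and 3539 to 4072 in NPS-EMSC (log2 ratio 0.11, adjusted p = 0.0827).

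Genes that act beside the carriers were read from the same fit. Carriers made in the cytosol are led to the TOM receptors of the outer membrane, passed on by the small TIM chaperones and inserted by the TIM22 complex. Of 13 tested genes of this import route 9 rose and 1 fell (76.9% called, where 59.3% of all tested genes were, median log2 ratio 0.34). The chaperone genes Timm13, Timm10 and Timm8b rose with log2 ratios of 0.70 (adjusted p = 3.11e-07), 0.91 (adjusted p = 1.31e-05) and 0.44 (adjusted p = 1.61e-05), and the receptor gene Tomm20 with 0.36 (adjusted p = 3.22e-07). Import genes were thus mostly higher by modest amounts, where the carriers themselves had a median of 0.06.

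Of 20 genes for other mitochondrial transport proteins, 8 rose and 6 fell (70.0% called, median log2 ratio -0.02). Sfxn1, which encodes a serine transporter, rose from 100.4 ± 3.73 to 153 ± 4.65 CPM (SD, n = 3; log2 ratio 0.61, adjusted p = 4.44e-11), while its relative Sfxn3 fell from 131 ± 2.84 to 87.8 ± 5.53 CPM (log2 ratio -0.58, adjusted p = 3.74e-10). Vdac1, the gene of the main pore of the outer membrane, rose with a log2 ratio of 0.38 (adjusted p = 9.07e-08). Its relative Vdac2 fell with a log2 ratio of -0.21 (adjusted p = 0.000357), and Vdac3 was not called (log2 ratio -0.04, adjusted p = 0.443).

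Of 24 genes for enzymes that make or use what the carriers move, 16 rose and 3 fell (79.2% called, median log2 ratio 0.25). Cpt1b, the muscle form of the enzyme that makes acylcarnitine, rose from 0.894 ± 0.265 to 14.0 ± 1.45 CPM (SD, n = 3; log2 ratio 3.89, SE 0.19, adjusted p = 2.67e-15). Cpt1a, another form of this enzyme, was more abundant in both groups, at 106 CPM in EMSC against 108 CPM in NPS-EMSC. It was not called (log2 ratio 0.03, adjusted p = 0.646), while the form Cpt1c rose with a log2 ratio of 0.61 (adjusted p = 4.99e-07). Slc25a20, which carries acylcarnitine, was at 0.07 as given above. Oat, ornithine aminotransferase, fell from 436 ± 18.1 to 226 ± 10.6 CPM (log2 ratio -0.95, adjusted p = 5.22e-15). The 4 enzymes of the malate-aspartate shuttle, Got1, Got2, Mdh1 and Mdh2, chosen after their values were seen, rose with log2 ratios of 0.17, 0.22, 0.23 and 0.43.

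Among 11 regulators of mitochondrial biogenesis 4 rose and 2 fell (54.5% called, median log2 ratio 0.07). Esrra, a nuclear receptor that works with PGC-1 coactivators, rose with a log2 ratio of 0.81 (SE 0.07, adjusted p = 2.17e-10), Ppargc1a, the PGC-1α gene, with 0.67 (adjusted p = 3.64e-05) and Myc with 0.47 (adjusted p = 2.64e-05). Gabpa, an ETS factor of nuclear genes for mitochondrial proteins, fell by 0.29 on the log2 scale (adjusted p = 6.51e-05).

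**Figure D5:**
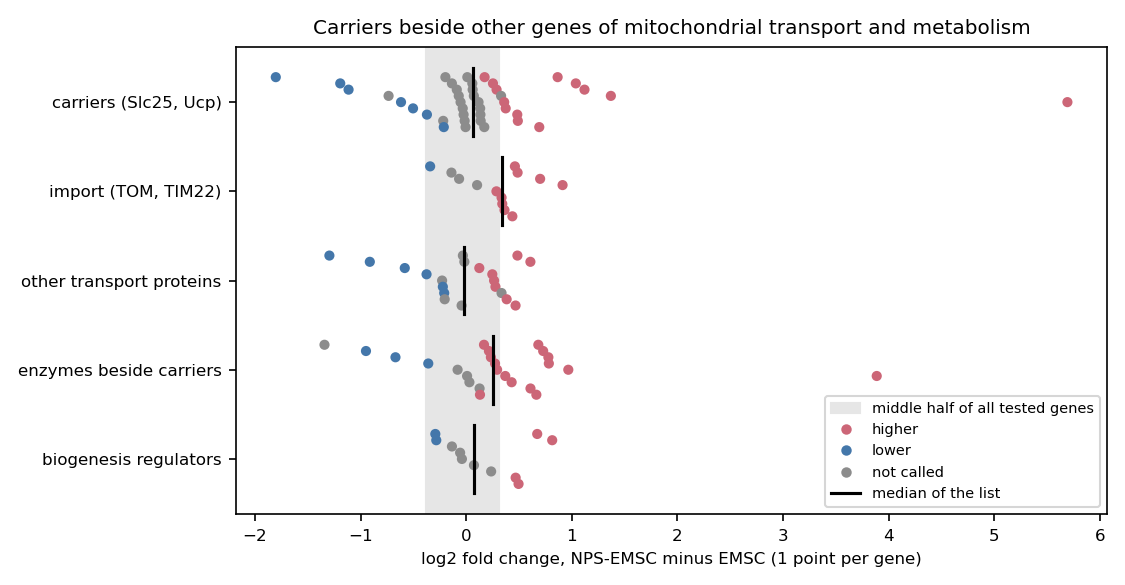
Log2 fold change (x axis, NPS-EMSC minus EMSC) of each tested gene in the carrier family and in 4 lists of related mitochondrial genes (y axis). Red points were called higher, blue lower and grey not called, black bars are list medians, and the grey band runs from the lower to the upper quartile of all tested genes (-0.38 to 0.31). The median is 0.06 for the carriers and 0.34 for the import genes.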

How the data were processed

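Bulk RNA was sequenced from 3 EMSC and 3 NPS-EMSC libraries, made with a VAHTS Universal V6 kit from TRIzol extracts, per the labels' protocols. Tools named in the submitters' processing notes, without their roles, are HISAT2, StringTie, HTSeq, fastp, R 3.2.0 and DESeq. The sources used here do not give a genome build, annotation or strand setting. The authors deposited raw read counts per gene, and an FPKM table that equals those counts divided by the library total and 1 fixed length per gene, to within 0.1 percent for all 20653 genes.

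Counts were tested with edgeR 4.0.16 (R 4.3.3, glmQLFit with its robust option, then glmQLFTest), with TMM factors and filterByExpr (minimum count 10, minimum total 15), with Benjamini-Hochberg adjustment over 14505 genes. Log2 fold changes use a prior count of 2, and their SE is |log2 fold change| over √F. The biological coefficient of variation was 0.0737. Data for 14292 tested genes were simulated with the real means and library sizes. Changes were planted in 50 genes per size, all with a mean of at least 1 CPM. Of the 1.2-, 1.5-, 2- and 4-fold changes 50.0%, 76.0%, 94.0% and 100% were recovered, with 11 false calls among 14092 unchanged genes. Far fewer genes changed there than were called in the real data, so the rates need not hold for the real test. They do not cover genes under 1 CPM.

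Alternatives were RLE factors, DESeq2 1.42.0, limma 3.58.1 (voom, and log2(FPKM + 1) or log2(FPKM + 0.1)), other filters, a replicate block, a stricter threshold (0.01) and the omission of each library in turn. The members, gene lists and naming rule were chosen with earlier results of these data known. Values for each library are given for called members with at least a 1.5-fold change and the 4 most abundant, and up to 4 called genes by smallest p are named per list. Genes named beyond this, among them those of related pairs and overlapping genes, were chosen after their values were seen. A few genes that the rule would name are counted in their lists but not reported singly here.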

Additional observations from a re-analysis of the deposited data

How the results depend on the processing

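The number of members higher in NPS-EMSC was 9 to 13 and the number lower 5 to 8 over all alternatives, against 13 and 7 as reported, and the number of all genes called was 7121 to 8914 against 8600. No called member changed sign in any alternative, and 13 of the 20 called members kept their call in every alternative that could test them. The calls that were lost at least once were those of Slc25a16, Slc25a23, Slc25a26, Slc25a32, Slc25a33, Slc25a46 and, with limma-voom, Slc25a48. On log2(FPKM + 1) the log2 fold change of Slc25a48 was 2.53. Of the 21 members not called, 17 were called in no alternative.

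Signs changed in 5 members that were not called. Slc25a1 was at -0.0340 on log2(FPKM + 1), with and without a filter, and -0.0349 on log2(FPKM + 0.1). With each library left out in turn it was -0.0376 (without NPS-EMSC replicate 2) to 0.0805 (without NPS-EMSC replicate 1). The same ranges were -0.0427 (NPS-EMSC replicate 2) to 0.0177 (NPS-EMSC replicate 3) for Slc25a17, -0.0129 (EMSC replicate 3) to 0.00385 (NPS-EMSC replicate 1) for Slc25a3, -0.111 (NPS-EMSC replicate 1) to 0.0424 (NPS-EMSC replicate 2) for Slc25a40 and -0.620 (NPS-EMSC replicate 3) to 0.509 (EMSC replicate 3) for Slc25a53. The cause of these changes of sign was not tested.

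With the replicate block 12 members were higher and 8 lower, and 8588 genes were called. Slc25a23 was lost (adjusted p = 0.0544) and Slc25a21 gained (adjusted p = 0.0182). Deviations from the group mean correlated at -0.06, 0.07 and 0.05 between libraries with the same number. Between libraries with different numbers the correlations were -0.15 to 0.11. With 3 libraries per group these values cannot decide whether the numbers pair them. Members under 1 CPM rest on few reads, and small changes in them were not detectable.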
